A study of Mus musculus with 12 samples.

Results

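The genes described here encode neurotrophins and the receptors that bind or sort them: *Ntrk2*, *Ntrk3*, *Bdnf*, *Ntf3*, *Ngfr* and *Sort1*. They were chosen by gene symbol, with results of the same R6/2 against WT comparison already known, and a gene was taken from every probe set that carried its symbol alone. This gave 5 of the 6 genes, out of 22180 genes with such a probe set, and 4 of them passed the level filter, out of 14550 genes. *Ntf3* had no probe set of a single symbol in the annotation used and was not analysed here. The RNA came from the subcutaneous inguinal fat of 6 R6/2 mice and 6 WT littermates, all males of 12 weeks on a C57BL/6 background, each mouse measured on 1 Affymetrix Mouse Gene 2.0 ST array. R6/2 mice are a transgenic line that carries exon 1 of human huntingtin, its CAG repeat expanded, next to their own mouse *Htt* genes. WT mice carry no transgene. The study asked whether white adipose tissue (WAT) of R6/2 mice differs from that of WT mice and takes on features of brown fat.

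Neurotrophins are secreted growth factors that keep neurons alive and shape their branches. BDNF and NT-4 bind the receptor tyrosine kinase TrkB, NT-3 binds TrkC, and all neurotrophins bind the p75 receptor, which is found on peripheral glia as well as on neurons. BDNF acting on TrkB in the hypothalamus lowers food intake, and BDNF reaching the striatum, the brain region most affected in Huntington's disease, is carried in vesicles whose transport involves huntingtin. In fat, sympathetic nerves drive lipolysis and heat production, and sortilin, the product of *Sort1*, is part of the vesicles that hold the glucose transporter GLUT4 in adipocytes.

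The start sites of *Ntrk2* and *Ngfr* are shown because these were the receptor genes measured here that the promoter sequences at hand covered. Both windows run from 250 bases before to 50 bases after the start of the gene, 5′ to 3′, from RefSeq on build GRCm38.p6, at chr13:58806319-58806618 on the plus strand for *Ntrk2* and chr11:95587649-95587948 on the minus strand for *Ngfr*. Capitals mark the GC box, GGGCGG on either strand.
Ntrk2: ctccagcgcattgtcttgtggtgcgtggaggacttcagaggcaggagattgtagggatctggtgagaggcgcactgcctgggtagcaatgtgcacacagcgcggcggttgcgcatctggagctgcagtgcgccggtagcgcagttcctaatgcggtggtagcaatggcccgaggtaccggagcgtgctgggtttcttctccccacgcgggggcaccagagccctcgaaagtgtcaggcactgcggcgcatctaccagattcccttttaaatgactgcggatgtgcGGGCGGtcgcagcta
Ngfr: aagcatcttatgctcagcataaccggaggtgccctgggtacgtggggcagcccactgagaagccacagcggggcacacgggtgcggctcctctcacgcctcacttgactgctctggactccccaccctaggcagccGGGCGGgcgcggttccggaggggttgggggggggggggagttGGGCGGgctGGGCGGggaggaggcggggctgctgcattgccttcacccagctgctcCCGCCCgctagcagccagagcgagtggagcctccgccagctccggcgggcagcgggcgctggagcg
The *Ntrk2* window held 1 GC box and 61.3% G and C, and the *Ngfr* window held 4 GC boxes, 3 of them on the strand of the gene, and 71.7% G and C. None of these matches overlapped another. At least 1 GC box occurred in 35.7% of the 32851 mouse promoter windows of the same length. The cAMP response element TGACGTCA (in 1.79% of windows), the CCAAT box (in 37.4%) and the TATA box TATAAA (in 13.6%) were not found in either window. Sequence matches are a description, and no binding was measured.

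*Ntrk2* was the gene of this group that stood apart between the genotypes. Its signal was lower in R6/2 inguinal WAT, whereas *Ntrk3*, *Ngfr* and *Sort1* differed by less than their standard errors, and *Bdnf* was too dim to be compared. Values are RMA signals on the log2 scale, where 1 unit is a doubling, and each probe set has its own brightness, so levels were compared between mice and not between genes. A gene passed the level filter if its mean in either genotype was above the median of probe sets with no gene symbol, 5.44 in R6/2 and 5.45 in WT mice. Since the genes were chosen with this comparison known, their genotype differences are given as a description, without a test. The RNA was from whole tissue, in which fewer cells of a type and less RNA per cell cannot be told apart.

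**Figure D1:**
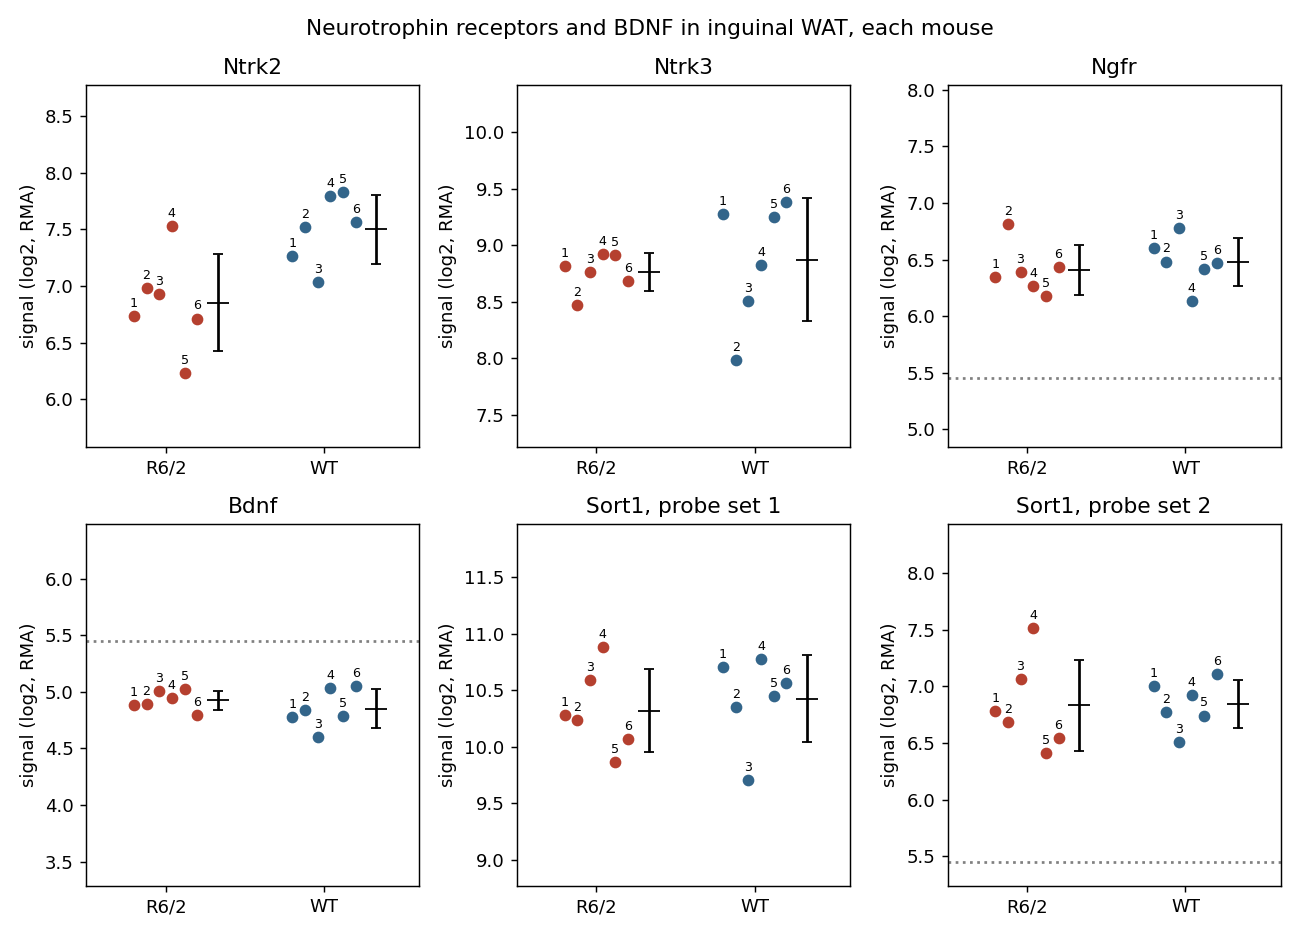
Signal (log2, RMA) of each mouse for *Ntrk2*, *Ntrk3*, *Ngfr*, *Bdnf* and both *Sort1* probe sets, R6/2 (red) left of WT (blue), with the replicate number at each point, the mean and SD as bars, and the WT level limit of 5.45 as a dotted line where it falls in the panel. All panels span the same number of log2 units. In *Ntrk2* R6/2 mouse 4 is the only R6/2 mouse within the WT range, and all *Bdnf* values lie under the limit.

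The ligands gave little signal. *Bdnf* read 4.88, 4.89, 5.00, 4.95, 5.03 and 4.80 in R6/2 mice 1 to 6, against 4.78, 4.84, 4.60, 5.04, 4.79 and 5.06 in WT mice 1 to 6. Every mouse was under the limit, the R6/2 mean of 4.92 ± 0.086 and the WT mean of 4.85 ± 0.17 (SD, n = 6 each) included, so that no fold is given. A signal under this limit does not show that the gene is silent. NT-4, encoded by *Ntf5*, is the other ligand of TrkB. Its mean was under the limit in R6/2 mice, at 5.36 ± 0.20, and just over it in WT mice, at 5.50 ± 0.22 (SD, n = 6 each). The gene was thus kept through WT alone, and no size of a difference is read.

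*Ntrk2* encodes TrkB. The R6/2 mice read 6.73, 6.98, 6.93, 7.53, 6.23 and 6.71, against 7.27, 7.52, 7.04, 7.80, 7.83 and 7.56 in the WT mice. In 5 of 6 R6/2 mice the signal fell under the whole WT range, and R6/2 mouse 4, at 7.53, lay in the middle of the WT mice. Of all 14550 genes, 1.33% had at least 5 of 6 R6/2 mice under the whole WT range. The means were 6.85 ± 0.43 in R6/2 and 7.50 ± 0.31 in WT mice (SD, n = 6 each). The R6/2 minus WT difference of -0.65 (standard error 0.20) corresponds to 0.638 times the WT level. Leaving out 1 mouse at a time moved it between -0.78, without R6/2 mouse 4, and -0.52, without R6/2 mouse 5. TrkB is made both as a full-length kinase and as truncated forms without the kinase, and 1 probe set signal does not tell these forms apart.

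*Ntrk3* encodes TrkC, the receptor of NT-3. R6/2 mice read 8.82, 8.47, 8.76, 8.92, 8.91 and 8.69, against 9.27, 7.98, 8.51, 8.82, 9.25 and 9.38 in WT mice. All R6/2 mice lay inside the WT range. The means were 8.76 ± 0.17 in R6/2 and 8.87 ± 0.55 in WT mice (SD, n = 6 each), with a difference of -0.11 (standard error 0.21). What differed to the eye was the spread, with a range of 0.451 among R6/2 and 1.40 among WT mice. WT mouse 2 was the lowest of all 12 mice and WT mice 1, 5 and 6 the highest, and no test of the spread was made.

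*Ngfr* encodes the p75 receptor. R6/2 mice read 6.35, 6.81, 6.39, 6.27, 6.18 and 6.44, against 6.60, 6.48, 6.78, 6.14, 6.41 and 6.47 in WT mice. The groups overlapped nearly throughout, with R6/2 mouse 2 just above the highest WT mouse. The means of 6.41 ± 0.22 in R6/2 and 6.48 ± 0.21 in WT mice (SD, n = 6 each) differed by -0.07 (standard error 0.12).

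*Sort1* encodes sortilin, which also binds the precursor forms of neurotrophins together with p75. It had 2 probe sets, merged here by their median in each mouse. The merged signal was 8.53, 8.46, 8.83, 9.20, 8.14 and 8.31 in R6/2 mice and 8.85, 8.56, 8.11, 8.85, 8.59 and 8.84 in WT mice. R6/2 mouse 4 was the highest of all and WT mouse 3 the lowest, and 5 of the R6/2 mice lay inside the WT range. The means of 8.58 ± 0.38 in R6/2 and 8.63 ± 0.29 in WT mice (SD, n = 6 each) differed by -0.06 (standard error 0.18). The brighter probe set differed by -0.10, at 10.32 ± 0.36 in R6/2 and 10.42 ± 0.38 in WT mice, and the dimmer by -0.01, at 6.83 ± 0.40 and 6.84 ± 0.22 (SD, n = 6 each). The mice stood in a similar order in both, with r = 0.891 (permutation p = 0.00022, two-sided) and rho = 0.902 (permutation p = 0.00043) between their deviations from the genotype means over 12 mice.

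Across all genes, limma called 0 of 14550 (0%) at an adjusted p under 0.05, and 482 genes (3.31%) were lower and 368 (2.53%) higher in R6/2 mice at an unadjusted p under 0.05. SAM, the method of the study, was run anew here with another level filter and without the fold threshold that the study set. It called 84 genes (0.577%) lower and 4 (0.0275%) higher at a q under 5%, counts not comparable with those of the study. Of the 4 neurotrophin receptor genes that passed the filter, 0 were called by limma after adjustment and 0 by SAM. Because the genes were chosen on this contrast, nothing is read from these counts.

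The wider pathway was taken from fixed lists of genes around the neurotrophins, which were chosen with earlier results of these data known. Of 96 listed genes 81 had a probe set of a single symbol, 7 of these were under the level limit, and 74 were tested. In R6/2 mice 34 of the 74 had a lower mean and 40 a higher mean, with a median difference of 0.02, against 45.8% of all genes with a lower mean and a median of 0.01. The 74 include 4 genes (*Ntf5*, *Sorcs3*, *Plg* and *Mmp7*) that were over the level limit in a single genotype. Of the 70 over it in both, 31 had a lower mean. By limma 0 of the 74 passed the adjusted threshold. At an unadjusted p under 0.05, 3 were lower and 1 was higher, and SAM called 1 of the 74. These were *Gfra4*, *Mmp3*, *Pik3r1* and *Pik3ca*, the first of them by SAM as well.

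The co-receptors of the pathway split evenly. Of 8 tested genes 4 had a lower and 4 a higher mean, and none of their differences exceeded 1.5 standard errors. *Sorl1*, a sorting receptor related to sortilin, differed most, by -0.21 (standard error 0.34), with 7.69 to 9.76 in R6/2 and 8.64 to 10.09 in WT mice. *Vangl2*, a planar polarity protein, differed by 0.14 (standard error 0.11) and *Kidins220*, a scaffold that binds Trk receptors and p75, by 0.12 (standard error 0.09). *Sorcs2*, a sorting receptor that pairs with p75, differed by 0.12 (standard error 0.22). Its relative *Sorcs3*, 1 of the 4 with a lower mean, averaged 5.42 in R6/2 mice, under the limit, and 5.48 in WT mice, so that no size is read. *Nradd*, a relative of p75, *Lingo1* and *Rtn4r*, which form a complex with p75, differed by -0.01, -0.04 and 0.04. *Sorcs1* was under the level limit.

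**Figure D2:**
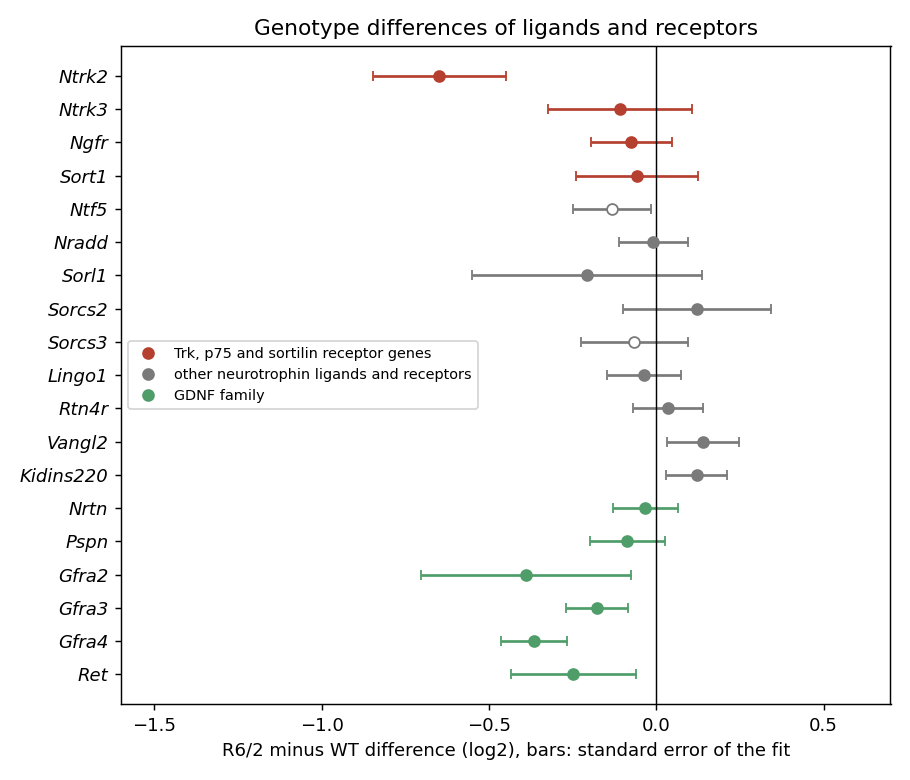
R6/2 minus WT difference (log2) of each ligand and receptor gene that passed the level filter, with the standard error of the limma fit as bars: the 4 receptor genes described above in red, other neurotrophin ligands and receptors in grey and the GDNF family in green. Open points mark *Ntf5* and *Sorcs3*, which were under the level limit in R6/2 mice, so that the size of their differences is not read. *Ntrk2* at -0.65 lies farthest to the left, and the 6 GDNF family genes lie between -0.39 and -0.03.

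Among the proteases that cut or activate neurotrophins, 5 of 9 tested genes had a lower and 4 a higher mean in R6/2 mice. *Mmp3*, a matrix metalloproteinase that can cut precursor neurotrophins, averaged 6.77 ± 0.53 in R6/2 and 7.60 ± 0.66 in WT mice (SD, n = 6 each), a difference of -0.83 (standard error 0.31, limma adjusted p = 0.787). Its signal was under the whole WT range in 4 of 6 R6/2 mice, and 4.21% of all genes had at least as many. *Furin*, which cleaves precursors inside the cell, differed by 0.03 (standard error 0.13), and *Plat*, which activates plasminogen outside it, by -0.17 (standard error 0.15). *Plg*, plasminogen itself, was under the limit in R6/2 mice (5.31 ± 0.25, against 5.53 ± 0.17 in WT mice, SD, n = 6 each), and *Mmp7* in WT mice (5.56 ± 0.36 in R6/2 and 5.38 ± 0.30 in WT mice, SD, n = 6 each), so that no size is given for either.

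Signalling genes downstream of the Trk receptors had a higher mean in 18 of 24 and a lower mean in 6, with a median difference of 0.04. Among all 14550 genes, 7881 had a higher and 6669 a lower mean. *Pik3r1*, the regulatory subunit of PI3 kinase, read 9.81 to 10.33 in R6/2 and 9.91 to 10.87 in WT mice, a difference of -0.47 (standard error 0.17, limma adjusted p = 0.736). *Pik3ca*, a catalytic subunit of the same kinase, averaged 9.41 ± 0.074 in R6/2 and 9.27 ± 0.075 in WT mice (SD, n = 6 each). Its difference was 0.14 (standard error 0.061, limma adjusted p = 0.839), with 9.29 to 9.49 in R6/2 and 9.16 to 9.36 in WT mice. Neither passed limma after adjustment or SAM. The paper names *Pik3r1* among the genes with altered expression in R6/2 WAT, while SAM as run here gave it q = 21.2%. The 9 tested partners of p75 split into 5 with a lower and 4 with a higher mean, all within -0.06 and 0.17.

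Immediate early genes that Trk signalling induces in neurons split into 4 with a lower and 5 with a higher mean. The widest differences were -0.64 (standard error 0.39) in *Fos* and 0.59 (standard error 0.34) in *Nr4a1*, both with a limma adjusted p = 0.874. *Htt*, the mouse huntingtin gene, averaged 8.38 ± 0.083 in R6/2 and 8.42 ± 0.091 in WT mice (SD, n = 6 each), a difference of -0.04 (standard error 0.066). This probe set does not report on the human transgene as such. *Rest*, a repressor of neuronal genes including *Bdnf*, differed by -0.08 (standard error 0.11), and *Hap1*, a huntingtin partner in vesicle transport, by 0.08 (standard error 0.15).

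The GDNF family is a separate group of neurotrophic factors that signal through RET and the GFRα co-receptors. All 6 of its tested genes had a lower mean in R6/2 mice, with a median difference of -0.21. Of all genes 45.8% had a lower mean. The GDNF family genes were chosen for description after their values were seen. *Gfra4*, the co-receptor of persephin, passed SAM with q = 4.94%, though not limma (adjusted p = 0.588). It read 5.88, 5.98, 6.00, 6.22, 6.13 and 5.77 in R6/2 mice, against 6.32, 6.23, 6.25, 6.34, 6.35 and 6.69 in WT mice. The groups did not overlap, with R6/2 lower, which held for 0.186% of all genes, though R6/2 mouse 4 at 6.219 and WT mouse 2 at 6.225 were almost level. The means were 6.00 ± 0.16 in R6/2 and 6.36 ± 0.17 in WT mice (SD, n = 6 each), a difference of -0.36 (standard error 0.099). The receptor kinase gene *Ret* had a difference of -0.25 (standard error 0.19) and was called by neither limma nor SAM. Its signal was under the whole WT range in 5 of 6 R6/2 mice, and 1.33% of all genes had at least as many. R6/2 mouse 4, at 7.51, lay over the WT range. *Gfra2* differed by -0.39 (standard error 0.31) and *Gfra3* by -0.18 (standard error 0.093), neither called by limma or SAM. The ligand genes *Nrtn*, at -0.03 (standard error 0.097), and *Pspn*, at -0.09 (standard error 0.11), differed by less than their standard errors. *Gdnf*, *Artn* and *Gfra1* were under the level limit.

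Inguinal pads differ in what they contain, so marker genes of 12 cell types were averaged in each mouse. Lymphocyte genes such as *Cd3e* and *Ms4a1* averaged 5.46 to 5.72 in R6/2 mice 3 and 4 and WT mouse 4, against 7.62 to 10.15 in the other 9 mice. Mature adipocyte genes such as *Adipoq* and *Plin1* overlapped between genotypes, at 11.11 ± 0.30 (10.69 to 11.53) in R6/2 and 11.23 ± 0.31 (10.65 to 11.53) in WT mice (SD, n = 6 each). The mean of 15 macrophage genes such as *Cd68*, *Itgam* and *Csf1r* was 7.55 ± 0.35 (7.11 to 8.08) in R6/2 and 8.09 ± 0.39 (7.58 to 8.53) in WT mice (SD, n = 6 each; exact permutation test, two-sided, p = 0.0346, adjusted over the 12 lists p = 0.377), and each of the 15 had a lower mean. Thermogenic genes such as *Ucp1* and *Cidea* averaged 8.72 ± 0.66 in R6/2 and 7.91 ± 0.65 in WT mice (SD, n = 6 each; exact permutation test, two-sided, p = 0.0628, adjusted p = 0.377), with a higher mean in 10 of 11. Skeletal muscle genes such as *Acta1* averaged 8.30 ± 1.73 (5.91 to 10.58) in R6/2 and 7.19 ± 1.93 (5.91 to 10.27) in WT mice (SD, n = 6 each; exact permutation test, two-sided, p = 0.307, adjusted p = 0.952), with a higher mean in 18 of 18. The muscle count includes *Myh1* and *Myh2*, which were under the level limit in WT mice (5.05 and 5.36) and were kept through R6/2 alone. Of all 14550 genes, 6669 had a lower and 7881 a higher mean. Of 12 neuronal genes 9 were under the level limit, among them *Th* and *Dbh*, the noradrenaline-making enzymes of sympathetic nerves. Of 12 Schwann cell genes with a probe set, 11 such as *Sox10* and *S100b* passed the limit, *Fabp7* through WT alone (5.23 in R6/2 and 5.49 in WT mice). Among all 22180 genes with a probe set of a single symbol, 14550 passed. A signal under the limit does not show that a gene or a cell type is absent. The Schwann cell genes averaged 6.53 ± 0.19 in R6/2 and 6.57 ± 0.10 in WT mice (SD, n = 6 each). With the macrophage mean as a covariate the *Ntrk2* difference was -0.47 (standard error 0.25), and with the mature adipocyte mean, a covariate chosen after seeing the data, it was -0.53 (standard error 0.12). With the skeletal muscle mean it was -0.65 (standard error 0.22), and the part of the thermogenic genes was not tested. Without R6/2 mice 3 and 4 and WT mouse 4 it was -0.78.

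To see which cell types the receptor genes moved with from mouse to mouse, each mouse's deviation from its genotype mean was set against that of the marker means, which leaves the genotype difference out. Permutation within genotype, two-sided, gave 48 relations, of which 6 passed an adjusted p of 0.05 by Pearson's r, 5 of them in *Sort1*. Where the mice fell into separate clusters in a marker mean, the relation was taken within the larger cluster. All marker means come from the same arrays, and these relations are not independent of each other.

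*Sort1* followed the mature adipocyte genes closely, with r = 0.964 (permutation p = 1e-05, the smallest these resamples can give, adjusted p = 0.00048) and rho = 0.972 (permutation p = 2e-05, adjusted p = 0.00096) over 12 mice. Only 0.234% of all genes, 34 in number with *Sort1* itself and any marker genes included, had an r as high. The relation was 0.952 without the 2 mice farthest from the median and 0.974 over the 9 mice without the low lymphocyte signal. *Sort1* also moved with endothelial genes (r = 0.932, adjusted p = 0.0048; rho = 0.909, adjusted p = 0.0125), mural cell genes (r = 0.883, adjusted p = 0.012; rho = 0.881, adjusted p = 0.0357) and Schwann cell genes (r = 0.817, adjusted p = 0.0296; rho = 0.832, adjusted p = 0.0685), by permutation over 12 mice. Against lymphocyte genes it ran the other way, with r = -0.868 (exact permutation p = 0.00556, adjusted p = 0.0444) and rho = -0.85 (adjusted p = 0.134) over the 9 mice with the higher lymphocyte signal. Without the 2 farthest mice the mural, Schwann and lymphocyte relations were 0.747, 0.562 and -0.818 and no longer passed. Over the 9 mice without the low lymphocyte signal the endothelial relation, at 0.822 (exact permutation, adjusted p = 0.225), did not pass, nor did the mural (0.739) and Schwann (0.485) relations.

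*Ntrk2* also varied with mature adipocyte genes within each genotype, less closely. Its r was 0.821 (permutation p = 0.00181, adjusted p = 0.0217), and its rho of 0.713 (permutation p = 0.017, adjusted p = 0.134) did not pass. An r as high was found in 8.89% of all genes. Without the 2 mice farthest from the median r was 0.645 (adjusted p = 0.361), and without the 3 mice low in lymphocyte genes it was 0.701 (adjusted p = 0.339), and it did not pass in these smaller sets of mice. Set to the mean adipocyte level by the common slope, *Ntrk2* was 6.71 to 7.17 in R6/2 and 7.03 to 7.70 in WT mice, so the ranges overlapped. The slope came from the same mice, and these adjusted values were made for *Ntrk2* alone, so nothing is read from them. R6/2 mouse 4, the highest R6/2 mouse in *Ntrk2*, was also the highest in the adipocyte mean. The relation of *Ntrk2* to macrophage genes was r = 0.326 (adjusted p = 0.627) and rho = 0.336 (adjusted p = 0.585) by permutation over 12 mice.

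**Figure D3:**
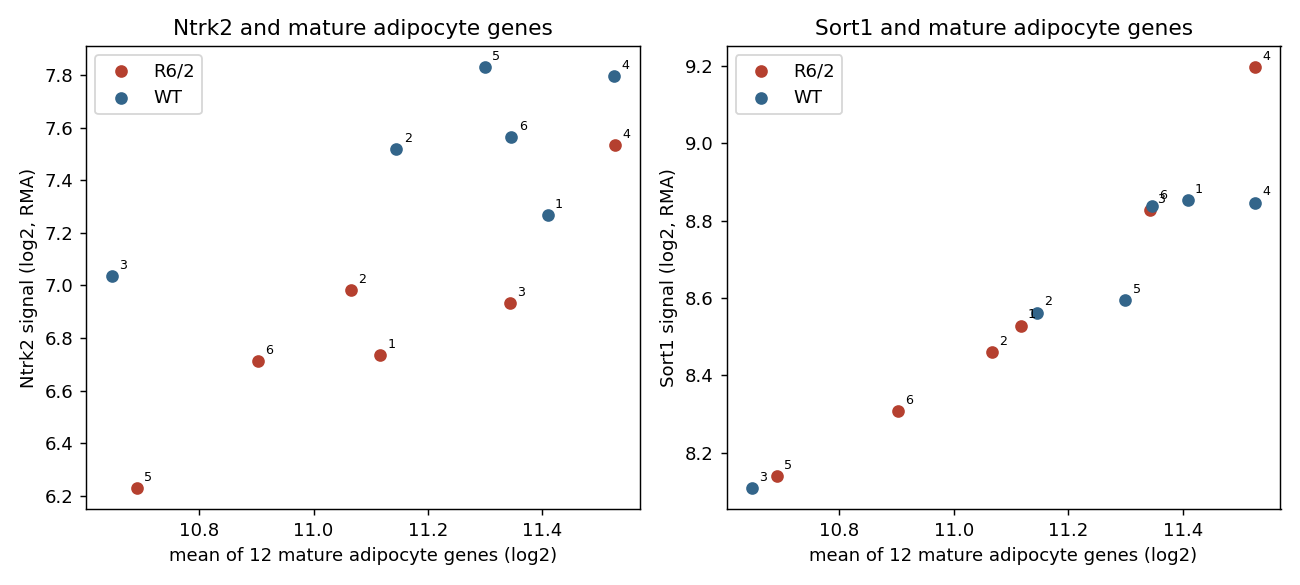
Signal (log2, RMA) of *Ntrk2* (left) and *Sort1* (right) against the mean of 12 mature adipocyte genes (log2) in each mouse, R6/2 in red and WT in blue, with the replicate number at each point. The *Sort1* points of both genotypes lie along 1 line. *Ntrk2* was chosen on the genotype contrast, and nothing is read from the offset between its R6/2 and WT points.

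For *Ntrk3* and *Ngfr* no relation passed. The *Ntrk3* values with the largest r among those over 12 mice were -0.664 with neuronal genes (adjusted p = 0.254) and -0.646 with progenitor genes such as *Pdgfra* (adjusted p = 0.135), both by permutation. *Ngfr* had its largest r, 0.594, with the 3 neuronal genes *Uchl1*, *Syt1* and *Stmn2* (permutation, adjusted p = 0.179), and -0.334 with Schwann cell genes (permutation, adjusted p = 0.65). The *Ntrk3* relation to thermogenic genes was r = 0.584 (permutation, adjusted p = 0.179). Their rho values did not pass either.

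**Figure D4:**
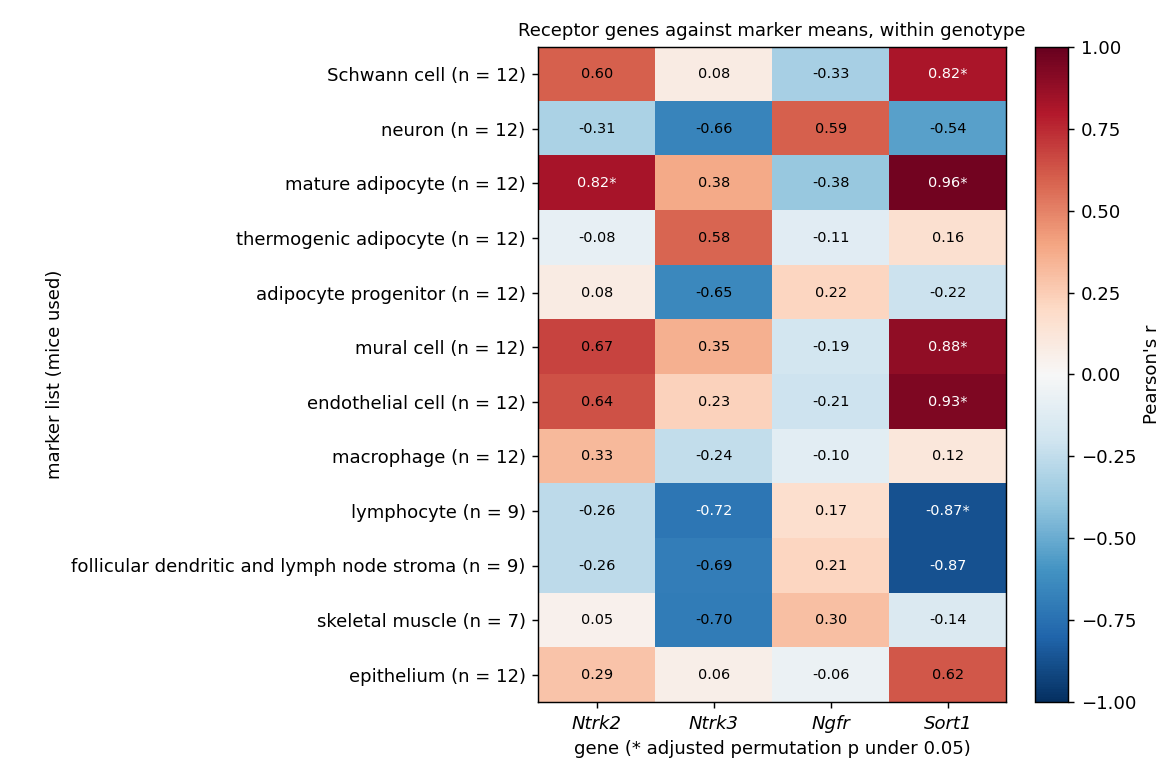
Pearson's r (colour and number) between the deviations from the genotype means of 4 receptor genes (columns) and 12 marker means (rows), with the number of mice used beside each row and an asterisk at an adjusted permutation p under 0.05. The asterisks fall on 5 marker means of *Sort1* and on the mature adipocyte mean of *Ntrk2*.

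Among themselves the 4 genes made 6 pairs, of which only *Ntrk2* with *Sort1* passed, by Pearson's r alone. Its r was 0.794 (permutation p = 0.00567, adjusted p = 0.034) and its rho 0.629 (permutation p = 0.0439, adjusted p = 0.162) over 12 mice. It did not pass without the 2 farthest mice (r = 0.812, adjusted p = 0.0696), without the 3 mice low in lymphocyte genes (r = 0.577, adjusted p = 0.737) or with the genotypes pooled (r = 0.635, adjusted p = 0.164), all by permutation. The other 5 pairs had r between -0.337 and 0.373, *Ntrk2* with *Ntrk3* at 0.126 and *Ntrk2* with *Ngfr* at -0.238.

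The genes most alike to each receptor gene were ranked by r over 12 mice among all genes, as a description without a test. For *Ntrk2* they were *Grk5*, a kinase of G protein-coupled receptors (r = 0.934), *Pygb*, a glycogen phosphorylase (0.934), *Il34*, a ligand of the macrophage receptor CSF1R (0.927), *Klhl2* (0.919) and *Steap4*, a metalloreductase (0.918). Over the 9 mice without the low lymphocyte signal these r were 0.826 to 0.899. For *Sort1* they were *Srgap1* (0.982), *Epas1*, a hypoxia-inducible factor (0.980), *Cmc1*, *Ptprg* and *Akap7* (0.977). The r with *Srgap1* over the 9 mice was 0.989. *Ntrk3* was most alike to *Smlr1* (0.884 over 12 and 0.973 over 9 mice), followed by *Gm10144*, *Uts2*, *Cacng8* and *Cul9* (0.823). *Ngfr* was most alike to *Vps28*, a subunit of the endosomal sorting machinery (0.905), followed by *Nudt16*, *Thoc5*, *Kat5* and *Leng9* (0.835).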

How the data were processed

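Inguinal WAT of 12 mice, 6 R6/2 and 6 WT, was measured with 1 array per mouse. The authors discarded degraded RNA, applied RMA to all arrays jointly (Affymetrix Expression Console 1.1.2, also named in the submitters' processing notes), and deposited log2 signals for 41345 probe sets. RMA shares 1 distribution over arrays, so values are relative to the total of each sample. Deposited values ranged from 0.658 to 13.9 and array medians from 5.75 to 5.87; 0 per-sample columns were left unused. The number of arrays limits the precision, and the smallest two-sided p an exact test of 6 against 6 mice allows is 0.00216. The replicates are separate mice.

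The platform annotation gave 1 symbol to 23521 probe sets, several to 1820 and none to 16004; the last group set the level limit, in place of the negative control probes that the study used. Those above it in at least 1 genotype (15328 probe sets) were merged by the median into 14550 genes. Genotypes were compared with limma 3.58.1 (lmFit, eBayes, Benjamini-Hochberg over all genes) in R 4.3.3 with the data.table package (1.17.8), and with SAM over 100 relabellings as an alternative. Relations used 100000 resamples within genotype or exact enumeration under 10 mice, with NumPy 2.4.6 and pandas 2.3.3 in Python 3.11.15; plots used matplotlib 3.10.9. A marker mean with a gap of over 1 log2 unit between mice was taken as clustered, a rule set after seeing the data. Scripts were tested on simulated data.

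The genes and lists were chosen with earlier results of these data known. The planned relations covered 6 genes; 4 passed the filter, giving 48 relations and 6 pairs. The text names every chosen gene, listed ligands and receptors, up to 6 pathway genes per list at an unadjusted p under 0.05, the 5 most alike genes, and up to 3 markers per list. The remaining pathway genes given as examples (such as *Furin*, *Plat*, *Plg*, *Fos*, *Nr4a1*, *Htt*, *Rest*, *Hap1* and the GDNF family) were chosen after their values were seen. Alternatives covered the level filter, merging, normalization, variance model, array weights, covariates, a replicate block and leaving out mice.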

Additional observations from a re-analysis of the deposited data

How the results depend on the processing

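Over the 13 other settings of the fit the *Ntrk2* difference ran from -0.84 with array weights to -0.47 with the macrophage covariate. *Ntrk3* ran from -0.25 to -0.05 and *Ngfr* from -0.11 to -0.01. For these 3 genes the level filter, the merging, the variance model and the replicate block cannot change the difference. All settings share the same arrays, so the sign over settings is no test. *Sort1* ran from -0.23 to 0.07 and was negative in 11. With array weights *Ntrk2* passed limma (adjusted p = 0.0446), the 1 setting in which it did, and its SAM q was 5.08%, just over the threshold; the gene was chosen on this contrast, and nothing is read from either. Without 1 mouse the ranges were -0.78 to -0.52 for *Ntrk2*, -0.29 to -0.01 for *Ntrk3*, -0.16 to -0.02 for *Ngfr* and -0.18 to 0.03 for *Sort1*.

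The number of genes past the limma threshold depended most on the setting. Against 0 lower and 0 higher genes, array weights gave 40 lower and 6 higher, the lymphocyte covariate 15 and 4, leaving out the 3 mice low in lymphocyte genes 8 and 1, the mature adipocyte covariate (added after seeing the data) 2 and 1, and quantile normalization 1 lower. SAM gave 84 and 4, and 1 pathway gene (*Gfra4*) against 0; SAM was not rerun without single mice. Without 1 mouse the counts were 0 to 22 lower and 0 to 1 higher, with 22 and 1 without R6/2 mouse 4, and 1 lower without WT mouse 1 or WT mouse 3. Genes at an unadjusted p under 0.05 numbered 850, against 270 with the macrophage covariate and 2779 with array weights, and pathway genes 4, against 1 and 13. Over all genes, the deviations of R6/2 and WT mice with the same replicate number had r from -0.785 to 0.776. These r do not settle whether the numbers mark pairs of mice. The replicate block gave 2 lower genes, with the *Ntrk2* difference at -0.65 (standard error 0.19). The cause of these shifts was not tested.

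Over the 9 mice without the low lymphocyte signal, relations that no longer passed were *Ntrk2* with adipocyte genes (0.701), *Sort1* with Schwann (0.485), mural (0.739) and endothelial genes (0.822), and *Ntrk2* with *Sort1* (0.577). *Sort1* with lymphocyte genes (-0.868) was taken over these 9 mice from the start, and this setting is no test of it: its adjusted p alone moved, to 0.128, with the other relations of the family. Without the 2 farthest mice these were *Ntrk2* with adipocyte genes (0.645), *Sort1* with Schwann (0.562), mural (0.747) and lymphocyte genes (-0.818), and *Ntrk2* with *Sort1* (0.812). With genotypes pooled, *Ntrk2* gave 0.727 with adipocyte genes and 0.635 with *Sort1*. Arrays centred on their medians gave -0.862 for *Sort1* with lymphocyte genes. The dimmer *Sort1* probe set (added after seeing the data) gave 0.797 with Schwann and -0.807 with lymphocyte genes and 0.750 with *Ntrk2*. *Sort1* with adipocyte genes passed in every setting, at 0.872 to 0.993.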
